A study of Mus musculus with 9 samples.

Results

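The messenger RNAs of 9 nuclear receptor coregulators were followed in macrophages treated with an inflammatory stimulus and an agonist of the liver X receptors (LXRs). The set is defined by gene symbol and its definition uses no measured value, though it was drawn up with earlier results of these data known, and all 9 of its genes were found among the 24061 symbols of the count table. Of these, 6 belong to corepressor machinery (Ncor1, Hdac3, Tbl1xr1, Gps2, Coro2a and Kdm1a), and Ncoa1, Ncoa2 and Ncoa3 encode the p160 coactivators. Where the table held several RefSeq transcript records for a symbol, their counts were summed.

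Nuclear receptors such as the LXRs act on genes through exchangeable protein partners. The corepressor NCoR1 forms a complex with the deacetylase HDAC3, the WD40 proteins TBL1 and TBLR1 and the subunit GPS2, which removes acetyl groups from histones and keeps target genes quiet. In macrophages, this complex also sits at inflammatory genes, where Toll-like receptor signals remove it and SUMO-modified LXRs have been reported to hold it in place. That role is disputed. The study behind these data cites a report that SUMO modification of LXR and NCoR may not be needed, and proposes that LXRs repress by binding enhancers directly. The p160 proteins bind agonist-occupied receptors and bring in the acetyltransferases CBP and p300.

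RNA-seq was available for bone-marrow-derived macrophages (BMDMs) of C57BL/6J mice in 3 groups of 3 libraries. The cells carried no engineered allele, came from female mice of 8 to 10 weeks, and were grown for 7 days in L-cell conditioned medium followed by a day without serum. Veh macrophages received DMSO vehicle only, and the time at which they were harvested is not given in the sources used here. LPS macrophages received DMSO for 3 hr and then 10 ng/mL lipopolysaccharide, the Toll-like receptor 4 ligand, for 2 hr. T0+LPS macrophages received 500 nM of the LXR agonist T0901317 (T0) in place of DMSO and then the same LPS. The LPS was added to the medium that held the agonist, so that T0 stayed on during the stimulation. No group received T0 without LPS. Each library came from an individually differentiated culture, and the labels do not tie the cultures to single mice.

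The libraries held 13299044 to 16467983 counts. Values are given as CPM, the counts per 1000000 counts of the effective library size that edgeR derives with its TMM factors, which assume that most genes hold level between libraries. The factors were 1.14 in Veh and 0.931 to 0.948 in the LPS-treated groups, so that the choice of scaling shifts each comparison with Veh by a similar amount for every gene. With library totals alone, the median log2 fold change of all tested genes in LPS against Veh moved from -0.0019 to -0.28, and the split of calls from 2982 lower and 3148 higher to 5408 lower and 1696 higher. Directions below are relative to the median gene, and genes whose direction rests on the scaling are named.

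The treatments were visible in marker genes. Il1b, an inflammatory cytokine, was at 1.78 ± 1.20 CPM in Veh, 1143 ± 136 CPM in LPS and 817 ± 87.5 CPM in T0+LPS (SD, n = 3 in each). The LXR targets Abca1, Abcg1, Srebf1 and Mylip were higher in T0+LPS than in LPS, by 1.47, 2.09, 1.30 and 1.27 on the log2 scale (edgeR, adjusted p of 1e-08 or less in each). Of 8 macrophage markers, 7 had reads (Itgam, with 3 unshared bases, had none) and their summed level was 26862 to 29123 CPM in Veh, 32332 to 33720 CPM in LPS and 35135 to 36607 CPM in T0+LPS, with no overlap between the groups. Most of this sum was Lyz2, at 19749 CPM in Veh on average. In LPS against Veh, Csf1r, Adgre1, Cd14 and Lyz2 were called higher and Cd68 was not called (edgeR). Fcgr1 (127 to 70.8 CPM) and Mertk (61.0 to 34.8 CPM) were called lower, and Mertk was at 72.8 CPM in T0+LPS. Markers of T or NK cells summed to at most 3.42 CPM, of B cells to 2.45, of neutrophils to 2.91, of dendritic cells to 2.99 and of fibroblasts to 0.661 CPM. Some of these sums leave out markers. Ly6g was not found among the symbols, and S100a9, Cd8a and Klrb1c, with 3, 31 and 9 unshared bases, had no read. The T or NK cell sum was mostly Cd4. The dendritic cell sum was higher in the LPS-treated groups (2.08 to 2.99 CPM) than in Veh (0.405 to 0.529 CPM), mostly through Xcr1, while Clec9a had no read and no base that only 1 record covers. The neutrophil sum was also higher, at 0.695 to 1.27 CPM in Veh, 2.06 to 2.91 CPM in LPS and 1.60 to 1.83 CPM in T0+LPS, mostly through S100a8. The B cell sum was lower, at 1.85 to 2.45, 1.00 to 1.60 and 0.836 to 1.45 CPM in the same order, and the T or NK cell sum was 2.64 to 3.42, 1.70 to 2.47 and 1.94 to 2.66 CPM. Any part of these cells in the results was not tested.

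How well each coregulator was measured depended on the annotation. By default, featureCounts leaves out a read whose bases fall on several records, so that only bases covered by a single record (unshared bases) count. The second Ncoa2 record, with 0 unshared bases, held 0 reads. Hdac3, Tbl1xr1, Gps2, Ncoa1, Ncoa3 and Kdm1a had 1 record each, so that all of their exon bases counted, and they held 6480 to 36556 reads over the 9 libraries. Ncor1, Coro2a and Ncoa2 had several overlapping records. Their 2514, 451 and 207 unshared bases held 1343, 218 and 112 reads.

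For Ncoa2 and Ncor1 the counted stretches are printed because the values of these genes rest on so little sequence. All 112 Ncoa2 reads came from exon 13 of 23 of the long transcript, a coding exon of 207 bases at chr1:13164896-13165102 on the minus strand (mm10) that the second Ncoa2 record skips. The Ncoa2 value is therefore that of transcripts with this exon. Reads that span into neighbouring exons touch shared bases, and a short stretch understates the level of its gene. The long Ncor1 record, of 45 exons, was counted over 222 bases, of which 168 lie at chr11:62373455-62373622 on the minus strand. In the reference annotation, these are part of coding exon 20 of a transcript of 46 exons, which is not the counted record itself. Both sequences were read from the transcripts of the reference annotation for the same build, run 5′ to 3′ along the transcript, and are in lower case throughout since no part is singled out.
Ncoa2 exon 13: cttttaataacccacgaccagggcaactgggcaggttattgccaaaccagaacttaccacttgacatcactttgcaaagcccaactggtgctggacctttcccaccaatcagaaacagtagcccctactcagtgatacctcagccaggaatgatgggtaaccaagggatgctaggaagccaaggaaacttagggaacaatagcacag
Ncor1 exon 20, unshared part: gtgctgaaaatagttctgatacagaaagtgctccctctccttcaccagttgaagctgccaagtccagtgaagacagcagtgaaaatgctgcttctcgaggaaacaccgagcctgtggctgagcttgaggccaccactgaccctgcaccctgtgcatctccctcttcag

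Only 284 of the 1343 Ncor1 reads fell on that long record. The record of a short Ncor1 transcript took 78.9% of the reads, through 2271 unshared bases. Most of them are its last exon, 2086 bases at chr11:62401377-62403462, which lies between exons of the long transcript and is contained in no exon of the reference annotation used here. The other 185, at chr11:62457148-62457332, are exon 1 of a protein-coding transcript of 46 exons in that annotation. Reads there need not come from a short transcript, and the counts do not split the reads of the record between its stretches. The Ncor1 level is thus mainly that of the short record, and which transcripts gave its reads was not tested. For Coro2a, 197 of 218 reads came from 113 untranslated bases of the first exon at chr4:46601817-46601929, which mark the transcript from the upstream start.

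**Figure D1:**
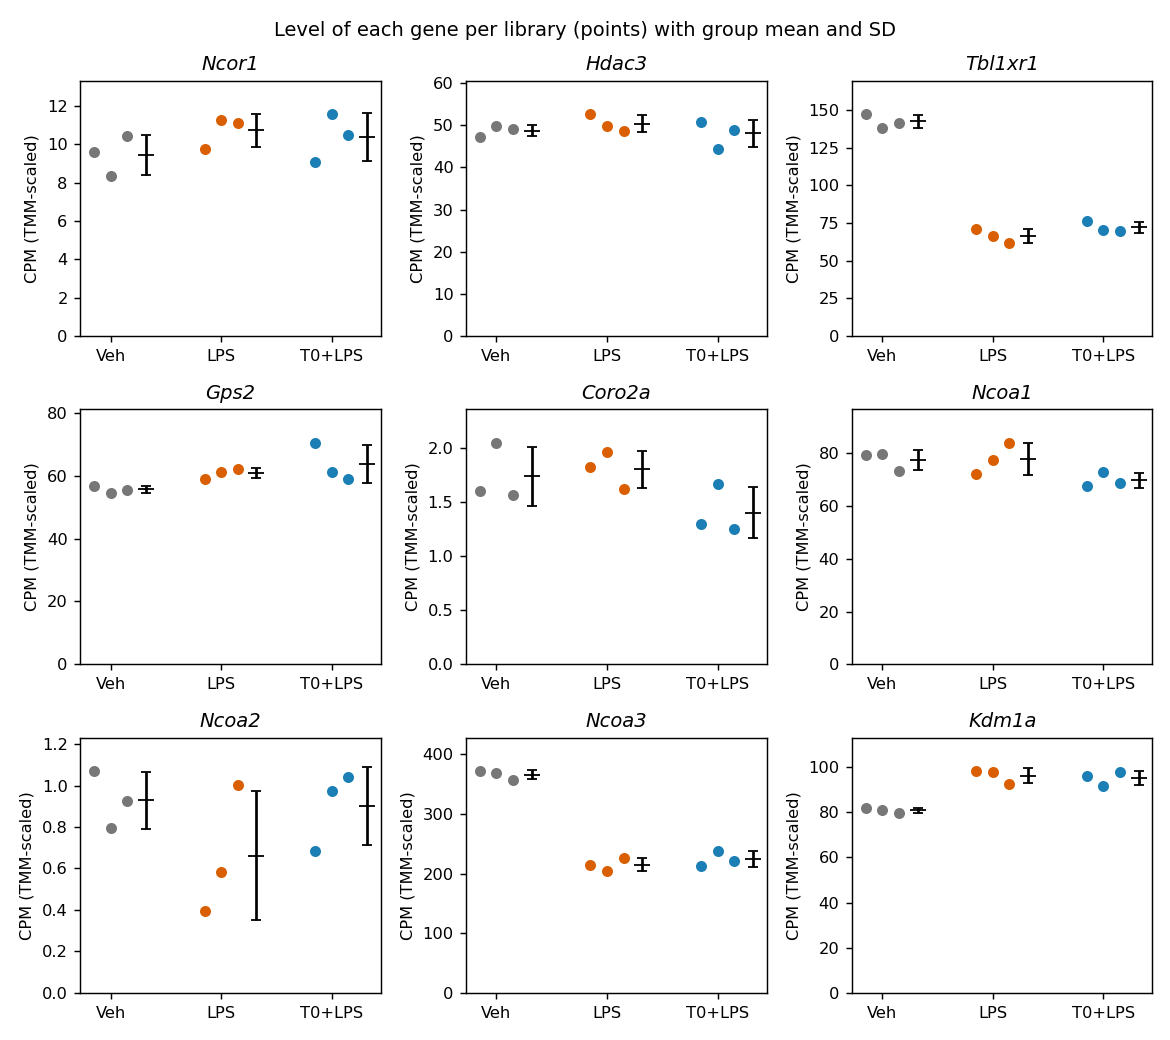
Level of each coregulator in CPM on a linear axis from 0, with 1 point per library, and the group mean with its SD beside the points (n = 3). Tbl1xr1 and Ncoa3 sit lower in all 6 LPS-treated libraries than in any Veh library, Kdm1a sits higher, and the 9 genes overlap between LPS and T0+LPS.

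LPS stimulation was accompanied by lower levels of 2 of the 9 coregulators and higher levels of 2. Tbl1xr1, the exchange adaptor of the corepressor complex, and Ncoa3, a p160 coactivator, were lower. The demethylase gene Kdm1a and the complex subunit gene Gps2 were higher by much smaller amounts. The other 5 did not pass the test. Among the 9559 genes tested in LPS against Veh, 31.2% were called lower and 32.9% called higher at an adjusted p under 0.05 (edgeR), so that 2 of 9 in each direction is no more than the share over all genes. The libraries of the LPS and Veh groups did not overlap for 4 of the 9 genes, against 67.4% of all genes.

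Tbl1xr1 encodes TBLR1, the WD40 subunit that recruits the ubiquitin machinery by which corepressors are cleared from a promoter. It lies at chr3:22076652-22216594 on the plus strand. Its level was 147, 138 and 142 CPM in the Veh libraries, 71.1, 66.1 and 62.1 CPM in the LPS libraries and 76.3, 70.7 and 69.6 CPM in the T0+LPS libraries. The Veh libraries were all far above the others, and the LPS and T0+LPS libraries overlapped. In LPS against Veh, the log2 fold change was -1.10 ± 0.054 (SE; 95% interval -1.21 to -0.98; adjusted p = 2.5e-11, edgeR), and the level fell by 53.3%, from 142 ± 4.46 to 66.4 ± 4.52 CPM (SD, n = 3). In 15 of 15 alternative fits the gene stayed lower and called, with log2 fold changes of -1.38 to -1.06. In these bulk samples, fewer cells of a type and less RNA per cell cannot be told apart.

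Hdac3 is the deacetylase that the corepressor complex activates. It was at 47.3, 49.9 and 49.1 CPM in Veh, 52.6, 49.9 and 48.7 CPM in LPS and 50.8, 44.5 and 48.9 CPM in T0+LPS. All 3 groups overlapped, and the log2 fold change of LPS against Veh was 0.051 (95% interval -0.065 to 0.17; adjusted p = 0.43, edgeR). With library totals alone, it was -0.23 (adjusted p = 0.0013), which is 0.052 above the shifted median gene.

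Ncor1 encodes the scaffold on which the complex assembles. Its summed level was 9.57, 8.33 and 10.4 CPM in Veh, 9.75, 11.3 and 11.1 CPM in LPS and 9.06, 11.6 and 10.5 CPM in T0+LPS. The groups overlapped, and the log2 fold change of LPS against Veh was 0.18 (95% interval -0.058 to 0.42; adjusted p = 0.17, edgeR). The long record alone was at 2.26 ± 0.549 CPM in Veh, 2.15 ± 0.418 CPM in LPS and 1.94 ± 0.388 CPM in T0+LPS. The short record was at 7.18 ± 1.22, 8.57 ± 0.598 and 8.42 ± 1.02 CPM in the same order (SD, n = 3). With 284 reads for the long record, differences of that record of the size of these SDs were not detectable at this depth.

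Gps2 encodes a small subunit that bridges NCoR1 and TBL1 proteins and restrains inflammatory signaling. It was at 56.8, 54.5 and 55.5 CPM in Veh, 59.0, 61.0 and 62.2 CPM in LPS and 70.4, 61.2 and 59.0 CPM in T0+LPS. Every LPS-treated library was above every Veh library, by a narrow margin. The log2 fold change of LPS against Veh was 0.13 ± 0.050 (SE; adjusted p = 0.034, edgeR), or 9.43% above Veh. This call was lost in 9 of 15 alternative fits, among them 5 of 6 fits without 1 library (all but the one without LPS replicate 1; adjusted p up to 0.11), and with library totals alone the sign turned to -0.15 (adjusted p = 0.014), 0.13 above the shifted median.

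Coro2a encodes an actin-binding WD40 protein that has been reported to link the corepressor complex to its removal and to be held back by SUMO-modified LXRs. Coro2a was counted over 451 unshared bases only. It was at 1.60, 2.05 and 1.56 CPM in Veh, 1.82, 1.97 and 1.62 CPM in LPS and 1.29, 1.67 and 1.25 CPM in T0+LPS. The groups overlapped, and at this depth the interval of LPS against Veh ran from -0.41 to 0.55 on the log2 scale (log2 fold change 0.068; adjusted p = 0.81, edgeR).

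Kdm1a encodes LSD1, which removes methyl groups from histone H3 lysine 4 in the CoREST complex. It lies at chr4:136550533-136602723 on the minus strand. It was at 82.1, 80.9 and 79.8 CPM in Veh, 98.2, 98.0 and 92.7 CPM in LPS and 95.9, 91.8 and 97.7 CPM in T0+LPS. All 6 LPS-treated libraries were above the Veh libraries, and the Veh libraries lay close together. The log2 fold change of LPS against Veh was 0.25 ± 0.047 (SE; 95% interval 0.15 to 0.35; adjusted p = 0.00019, edgeR), or 19.2% above Veh. The call held in 14 of 15 alternative fits. With library totals alone, the log2 fold change was -0.029, which is 0.25 above the shifted median gene.

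Of the p160 coactivators, Ncoa3, which encodes SRC-3, had the highest level per exon length in Veh among the 6 genes counted over all their exon bases. It lies at chr2:165992637-166073242 on the plus strand. Its libraries were at 372, 369 and 357 CPM in Veh, 214, 205 and 227 CPM in LPS and 213, 238 and 221 CPM in T0+LPS. Veh was apart from both other groups, which overlapped. The log2 fold change of LPS against Veh was -0.76 ± 0.046 (SE; 95% interval -0.86 to -0.67; adjusted p = 3.1e-10, edgeR), from 366 ± 7.78 to 215 ± 11.1 CPM (SD, n = 3). It stayed lower and called in 15 of 15 alternative fits, with log2 fold changes of -1.05 to -0.74.

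Ncoa1, which encodes SRC-1, did not pass the test in LPS against Veh. It was at 79.2, 79.7 and 73.0 CPM in Veh and at 72.0, 77.2 and 83.9 CPM in LPS, at a difference of 0.0097 on the log2 scale (95% interval -0.12 to 0.14; adjusted p = 0.89, edgeR). The T0+LPS libraries, at 67.4, 72.8 and 68.6 CPM, were below all Veh libraries and overlapped with the LPS group. With library totals alone, LPS against Veh gave -0.27 (adjusted p = 0.00094), which is 0.012 above the shifted median.

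Ncoa2 encodes SRC-2, also called GRIP1, a coactivator that glucocorticoid receptors use as a corepressor at inflammatory genes. Exon 13, printed above, held 20, 12 and 16 reads in the Veh libraries, 5, 8 and 13 in LPS and 9, 14 and 15 in T0+LPS. These are 1.07, 0.793 and 0.927 CPM in Veh, 0.396, 0.582 and 1.00 CPM in LPS and 0.685, 0.975 and 1.04 CPM in T0+LPS. The groups overlapped, and the log2 fold change of LPS against Veh was -0.50 with an interval of -1.25 to 0.26 (adjusted p = 0.24, edgeR). Single libraries moved this value, to -0.25 without LPS replicate 1 and to -0.92 without LPS replicate 3 (adjusted p = 0.6 and 0.066). An effect of the size seen in Ncoa3 lies within the interval.

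**Figure D2:**
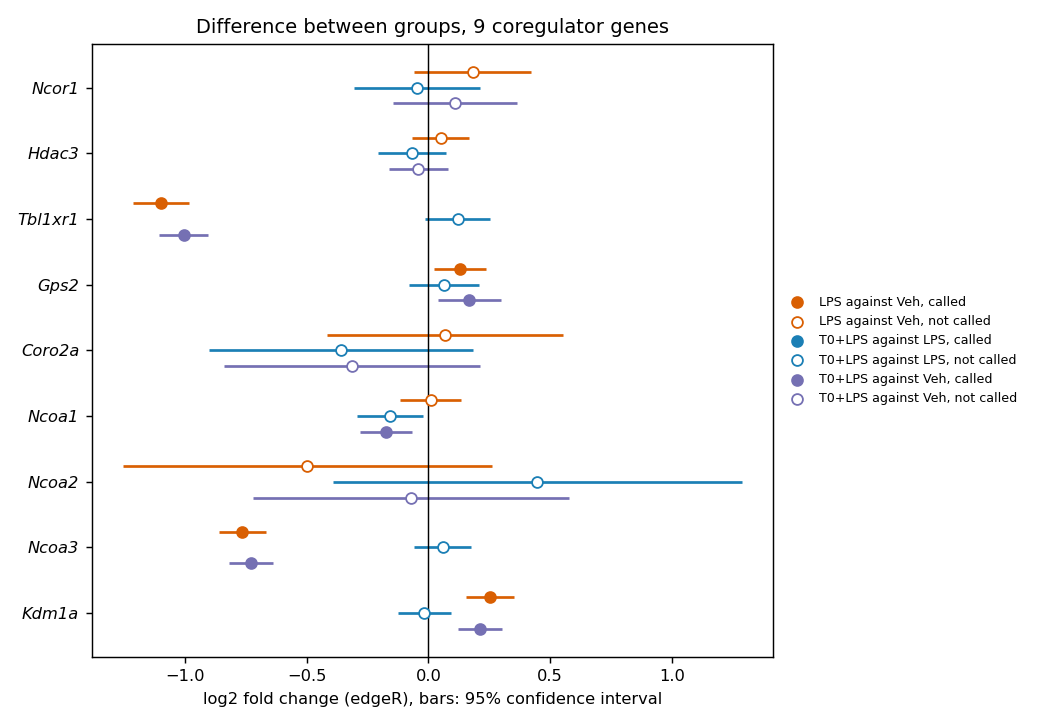
Log2 fold change of each coregulator (horizontal axis) in LPS against Veh, T0+LPS against LPS and T0+LPS against Veh, with 95% confidence intervals from edgeR, and filled points for an adjusted p under 0.05. Tbl1xr1 and Ncoa3 lie near -1.10 and -0.76 in LPS against Veh, no point of T0+LPS against LPS is filled, and the intervals of Ncoa2 and Coro2a are the widest of the 9.

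The comparison of T0+LPS with LPS asks what LXR activation before and during LPS changed in stimulated macrophages. None of the 9 coregulators was called in either direction (edgeR), with 1 at an unadjusted p under 0.05, and DESeq2 and limma-voom called 0 as well. Over the 9348 genes tested, 1.83% were called lower and 1.35% higher, and 1299 were at an unadjusted p under 0.05 (edgeR). All 9 genes overlapped between the groups, where 19.1% of all genes did not.

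The intervals bound the differences that T0 could have made. On the log2 scale, Kdm1a differed by -0.017 between T0+LPS and LPS (95% interval -0.13 to 0.092; adjusted p = 0.93, edgeR). For Ncoa3 it was 0.059 (interval -0.058 to 0.18; adjusted p = 0.72). For Hdac3 it was -0.068 (interval -0.21 to 0.072; adjusted p = 0.73), and for Gps2 0.064 (interval -0.081 to 0.21; adjusted p = 0.77). In these genes, a change by a factor of 1.5 in either direction lies outside the interval. Tbl1xr1 was 0.12 higher (interval -0.013 to 0.25; adjusted p = 0.42). Ncoa1 was the gene with an unadjusted p of 0.024, at -0.16 (interval -0.29 to -0.024; adjusted p = 0.25). Ncor1 was at -0.047 (interval -0.30 to 0.21; adjusted p = 0.92), mainly from its short record. Coro2a and Ncoa2 were poorly bounded, at -0.36 (interval -0.90 to 0.18; adjusted p = 0.6) and 0.45 (interval -0.39 to 1.29; adjusted p = 0.7).

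Against Veh, the T0+LPS group had 3 coregulators lower and 2 higher. The shares over the 9636 genes tested were 32.9% lower and 32.4% higher, and 5 of the 9 genes did not overlap between groups, against 69.4% of all genes. This comparison shares its Veh libraries with LPS against Veh and its T0+LPS libraries with T0+LPS against LPS, and is no separate evidence. Tbl1xr1 had a log2 fold change of -1.004 ± 0.047 (SE; adjusted p = 1.9e-11, edgeR), Ncoa3 at -0.73 ± 0.042 (adjusted p = 3e-10) and Kdm1a at 0.21 ± 0.043 (adjusted p = 0.00046). Gps2 was at 0.17 ± 0.061 (adjusted p = 0.024), a call lost in 3 of 6 fits without 1 library (Veh replicates 2 and 3 and T0+LPS replicate 1, where the log2 difference came to 0.10). With library totals alone, Kdm1a was at -0.051 and Gps2 at -0.094, and neither was called, while Hdac3 at -0.30 (adjusted p = 0.00018) and Coro2a at -0.58 (adjusted p = 0.045) were called lower, beside a median gene at -0.29. The third gene called lower was Ncoa1, at -0.17 ± 0.050 (95% interval -0.28 to -0.066; adjusted p = 0.0067, edgeR), which remained called in 15 of 15 alternative fits. Hdac3, at -0.042 (adjusted p = 0.53), Ncor1, at 0.11 (adjusted p = 0.43), Coro2a, at -0.31 (adjusted p = 0.28), and Ncoa2, at -0.072 (adjusted p = 0.84), did not pass the test.

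To compare levels between genes, CPM were divided by kilobases of unshared exon. In Veh, the order was Ncoa3 at 48.6 ± 1.03, Gps2 at 45.6 ± 0.941, Kdm1a at 26.8 ± 0.371, Hdac3 at 24.3 ± 0.681, Tbl1xr1 at 17.5 ± 0.549 and Ncoa1 at 10.6 ± 0.508 CPM per kilobase (SD, n = 3), and no neighbours in this order overlapped. Ncoa2, Coro2a and Ncor1 followed at 4.49, 3.86 and 3.76 CPM per kilobase, overlapping with one another. Short stretches understate Ncoa2 and Coro2a. For Ncor1 and Coro2a the value also pools records of unlike read density. In Veh, the long Ncor1 record was at 2.26 CPM over 222 bases and the short one at 7.18 CPM over 2271 bases. The first Coro2a record was at 1.55 CPM over 113 bases and the second at 0.186 CPM over 338 bases. The places of Ncor1 and Coro2a in this order are therefore not those of a single transcript. In LPS, the head of the order was Gps2 at 49.8 ± 1.35, Kdm1a at 31.9 ± 1.04 and Ncoa3 at 28.6 ± 1.48 CPM per kilobase. Ncoa3 thus passed from above Gps2 and Kdm1a to below both, and Tbl1xr1, at 8.17 ± 0.556, from above Ncoa1 to below it. In T0+LPS, Kdm1a at 31.5 and Ncoa3 at 29.8 overlapped, as did Ncoa1 at 9.49 and Tbl1xr1 at 8.88 CPM per kilobase.

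**Figure D3:**
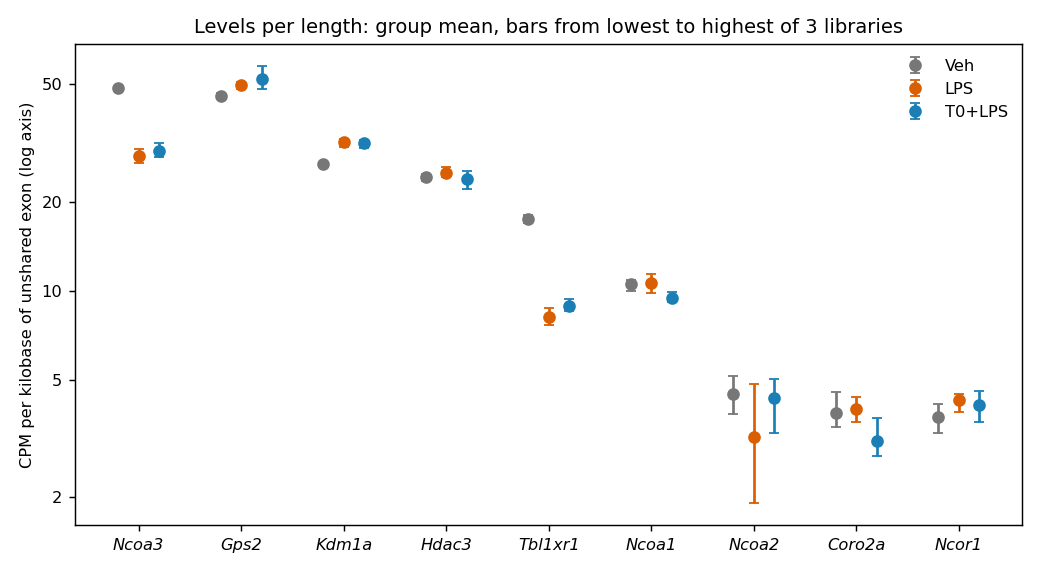
CPM per kilobase of unshared exon on a log axis for the 9 genes, ordered by their Veh level, as the group mean with bars from the lowest to the highest of 3 libraries. Ncoa3 and Tbl1xr1 change places with their neighbours between Veh and LPS. Ncor1, Coro2a and Ncoa2 have the lowest plotted values in all 3 groups. Those of Ncor1 and Coro2a pool records of unlike read density and do not rank a single transcript.

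Ratios between genes of the same library do not depend on how libraries are scaled. The pairs below were chosen after the values were seen, so they are given as a description, with no test. TBL1, encoded by Tbl1x, is the paralog of TBLR1 in the same complex, and Tbl1x rose from 58.0 ± 0.933 CPM in Veh to 81.1 ± 2.92 CPM in LPS (log2 fold change 0.49; adjusted p = 2.7e-07, edgeR). Whether reads that match both paralogs were counted is not given in the sources used here. The ratio of Tbl1xr1 to Tbl1x, per kilobase, was 0.730, 0.665 and 0.695 in the Veh libraries, 0.254, 0.236 and 0.208 in LPS and 0.282, 0.225 and 0.231 in T0+LPS. The log2 difference of LPS from Veh was -1.59, with no overlap, and the LPS and T0+LPS libraries overlapped.

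The ratio of Tbl1xr1 to Hdac3 was 0.721 ± 0.0431 in Veh, 0.325 ± 0.00965 in LPS and 0.371 ± 0.0205 in T0+LPS (SD, n = 3). That of Ncoa3 to Ncoa1 was 4.61 ± 0.132, 2.70 ± 0.170 and 3.13 ± 0.0564. In both ratios each group stood apart from the next, the step from LPS to T0+LPS being 0.19 and 0.22 on the log2 scale. None of the 4 genes was called on its own in T0+LPS against LPS. In that comparison the denominators Hdac3 and Ncoa1 were themselves at -0.068 and -0.16 on the log2 scale. How many other gene pairs would stand apart was not counted.

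**Figure D4:**
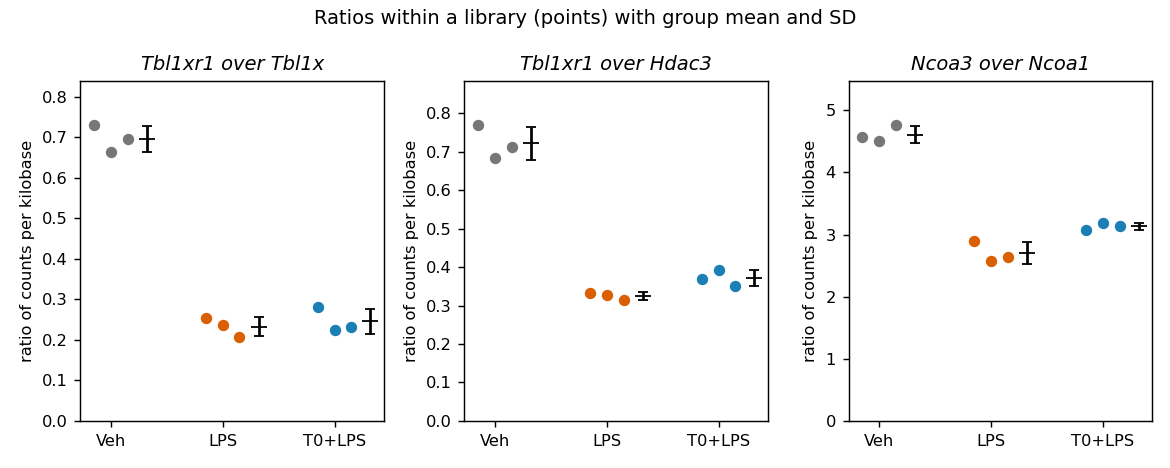
Ratios of counts per kilobase between gene pairs within each library, on linear axes from 0, with the group mean and SD beside the 3 points. The ratio of Tbl1xr1 to Tbl1x is 0.697 in Veh on average and 0.232 in LPS, and the ratios to Hdac3 and of Ncoa3 to Ncoa1 are lowest in LPS.

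The 66 other coregulator genes of the lists drawn up around the 9 were also read. Of these, 51 were tested in LPS against Veh, and 12 were called lower, 22 higher and 17 were not called (edgeR), beside 31.2% lower and 32.9% higher over all genes, with a median log2 fold change of 0.12 beside -0.0019 for all genes. Of the 15 not tested, 14 had several transcript records. In T0+LPS against LPS, 0 of 48 genes were called (edgeR), and 0 were called by DESeq2 or limma-voom. An unadjusted p under 0.05 (edgeR) was found for 3 of the 48, against 1299 of all 9348 genes. When no filter on low counts was used, 2 were called higher. Of the 48, 6 did not overlap between the groups, against 19.1% of all genes. With library totals alone, the counts in LPS against Veh were 22 lower and 13 higher. In the lists below, 31.2% and 32.9% are the shares over all genes for the edgeR counts with TMM scaling only. Counts with library totals alone stand beside 5408 lower and 1696 higher of all 9559 genes. Those with DESeq2 stand beside 2631 lower and 2882 higher of 9559.

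The machinery of corepressor removal was the list with most genes called higher: of 12 tested genes for ubiquitin and SUMO transfer, 10 were higher in LPS than in Veh, none lower, with a median of 0.45 (5 higher and 2 lower with library totals alone). Siah2, a ubiquitin ligase for NCoR1, rose from 22.9 ± 0.925 to 47.1 ± 3.35 CPM (log2 fold change 1.04; adjusted p = 1.4e-09). Ube2d3, of the ubiquitin-conjugating family that TBLR1 recruits, rose from 282 ± 6.77 to 482 ± 18.8 CPM (0.78; adjusted p = 1.2e-10). Both genes were also called higher with library totals alone.

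Of 5 tested subunits and adaptors of the NCoR complexes, 3 were higher and none lower (3 higher and 1 lower with library totals alone). Beside Tbl1x, these were Nrip1, the gene of the corepressor RIP140, at 22.9 ± 2.83 CPM in Veh and 40.6 ± 1.54 CPM in LPS (0.84; adjusted p = 1.5e-07, edgeR), and Spen, the gene of the adaptor SHARP, at 183 ± 6.83 and 264 ± 52.8 CPM (0.53; adjusted p = 0.00012; 0.34 without LPS replicate 3). Of 7 other histone deacetylases, Hdac1 and Hdac2, of the same class as Hdac3, were higher by 0.48 and 0.49 (adjusted p = 1.5e-06 and 4.3e-07), and Hdac5 and Hdac11 were lower, the libraries of Hdac5 overlapping between the groups. Hdac11 was low, at 1.48 ± 0.150 CPM in Veh and 0.334 ± 0.0999 CPM in LPS (-2.14; adjusted p = 4.7e-05). Of 6 genes of the CoREST and SIN3 complexes, Sap30, a SIN3 subunit, was higher, at 46.4 ± 4.32 and 156 ± 8.13 CPM (1.75; adjusted p = 4.5e-13). Rcor1, the CoREST scaffold that binds KDM1A, was lower, at -0.20 (adjusted p = 0.013; 0.1 without Veh replicate 1), as was Sap130, at -0.25 (adjusted p = 0.0021).

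The acetyltransferases that p160 coactivators bring in formed another list, together with the KMT2C and KMT2D methyltransferase complexes. Of 12 tested acetyltransferase and methyltransferase coactivators, 6 were lower in LPS than in Veh and 1 higher (31.2% and 32.9% over all genes), with a median of -0.19 (9 lower and 0 higher with library totals alone). Ep300, the gene of p300, was at 320 ± 13.4 CPM in Veh, 204 ± 20.5 CPM in LPS and 214 ± 13.2 CPM in T0+LPS (-0.65; adjusted p = 8.9e-08, edgeR). Crebbp, the gene of CBP, was not called, at 92.5 ± 5.93 CPM in Veh and 99.5 ± 11.6 CPM in LPS (0.11; adjusted p = 0.2, edgeR). The other acetyltransferase genes tested were not called either. Pagr1a and Kdm6a, of the KMT2C and KMT2D complexes, were lower, at -0.49 and -0.41 (adjusted p = 1.1e-05 and 2.8e-05). Of 9 other coactivators, 5 were higher and 2 lower, but 2 higher and 3 lower with library totals alone, and 3 higher and 1 lower with DESeq2. Ncoa5 was at 53.2 ± 3.18 and 133 ± 4.12 CPM (1.33; adjusted p = 1.5e-12) and Pprc1, of the PGC-1 family, at 55.8 ± 1.28 and 103 ± 6.08 CPM (0.88; adjusted p = 3.7e-10). Ppargc1b, of the same family, was at 3.78 ± 0.111 and 2.63 ± 0.551 CPM (-0.52; adjusted p = 0.022), a call lost with DESeq2 (0.072) and in 4 fits without 1 library (Veh replicates 1 and 2, LPS replicates 2 and 3).

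**Figure D5:**
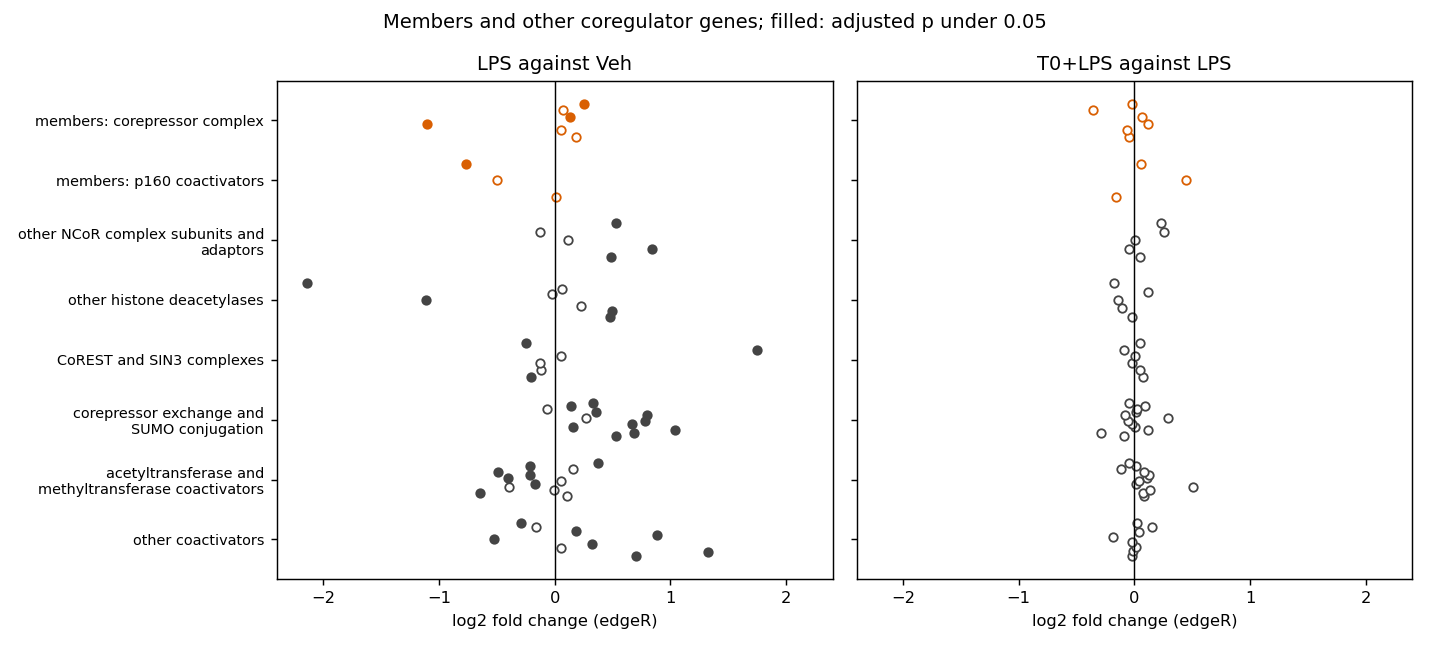
Log2 fold change of each tested gene of the 9 coregulators (orange) and of 6 lists of other coregulators (grey), in LPS against Veh (left) and T0+LPS against LPS (right), with filled points for an adjusted p under 0.05 (edgeR). The list on corepressor exchange lies mostly above 0 and that of acetyltransferases and methyltransferases mostly below 0 in LPS against Veh, and no point is filled in T0+LPS against LPS.

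For the 4 coregulators with the largest log2 fold changes in LPS against Veh, the gene with the most similar pattern was sought among 9223 genes, as the smallest root mean square (RMS) difference of centred log2 CPM over the 9 libraries. It was Plekho1 for Tbl1xr1 (RMS 0.070), which was at 330, 142 and 161 CPM on average in Veh, LPS and T0+LPS. For Ncoa3 it was Zmat3 (RMS 0.035), at 51.5, 29.9 and 32.7 CPM. For Kdm1a it was Gfm1 (RMS 0.022), at 46.4, 54.9 and 55.5 CPM. For Ncoa2 it was Esr1 with an RMS of 0.21, a loose match that rests on the 112 Ncoa2 reads.

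Start-site sequences were at hand for 6 of the 9 genes, as 8 windows of 300 bases from 250 before to 50 after a RefSeq start (GRCm38.p6). They are described here because Tbl1xr1 and Kdm1a were called in opposite directions. Both strands were searched for exact letters, and matches of different motifs could overlap. The GC box GGGCGG was in 4 of the 8 windows, against 35.7% of 32851 windows of all genes. The ETS letters CCGGAAG were in 2 (Ncor1 and Gps2; 8.86% of all windows), the nuclear receptor half-site AGGTCA in 1 (Kdm1a; 16.3%), the AP-1 letters TGANTCA in 0 (7.81%), the TATA letters TATAAA in 0 (13.6%) and the kappa B motif in 1 (Ncor1; 8.46%). Of the bases in the Tbl1xr1 and Kdm1a windows, 76.3% and 61.3% were G or C, with 25 and 29 CpG dinucleotides, against medians of 52.7% and 7. The 250 bases before each start are printed 5′ to 3′ along the gene, at chr3:22076402-22076651 on the plus strand for Tbl1xr1 and chr4:136602724-136602973 on the minus strand for Kdm1a. Capitals mark the 1 match in each, a GC box on the opposite strand in Tbl1xr1 and the half-site in Kdm1a.
Tbl1xr1 upstream: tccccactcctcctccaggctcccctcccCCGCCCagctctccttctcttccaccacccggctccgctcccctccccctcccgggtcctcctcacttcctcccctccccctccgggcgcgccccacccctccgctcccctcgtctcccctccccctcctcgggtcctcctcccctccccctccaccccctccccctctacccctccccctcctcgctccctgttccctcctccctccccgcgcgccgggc
Kdm1a upstream: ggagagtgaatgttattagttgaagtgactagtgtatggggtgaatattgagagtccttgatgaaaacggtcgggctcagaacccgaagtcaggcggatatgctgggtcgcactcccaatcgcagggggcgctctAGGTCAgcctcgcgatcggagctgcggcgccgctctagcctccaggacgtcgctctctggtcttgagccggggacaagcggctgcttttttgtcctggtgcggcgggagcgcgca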

How the data were processed

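The study deposited a table of counts for 9 RNA-seq libraries of poly(A) RNA. Per the labels and the methods, the authors trimmed reads with cutadapt, aligned them to mm10 with HISAT2 and counted them with featureCounts from Subread, 1 row per RefSeq transcript record. Whether reads were counted by strand is not given either. Files with the authors' own DESeq2 comparisons (fold changes and p-values) were not used.

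The 32850 rows of whole counts were summed to 24061 symbols. The 9 genes and the gene lists were chosen with earlier results of these data known. Each pair of groups was tested on its own with the quasi-likelihood test of edgeR 4.0.16 (R 4.3.3) across all genes left by filterByExpr, with TMM scaling and Benjamini-Hochberg adjustment; a gene was called at an adjusted p under 0.05. DESeq2 1.42.0 and limma 3.58.1 served as alternatives, beside other scalings, filters, units and fits without 1 library. On simulated counts with 200 genes changed by a factor of 1.5, the test recovered 156 in LPS against Veh (9559 genes), 153 in T0+LPS against LPS (9348) and 146 in T0+LPS against Veh (9636), with 11, 8 and 7 false calls. Genes named outside the 9 were, per list, at most the 3 called genes with the largest change and no overlap in LPS against Veh. Hdac5 and Crebbp fall outside this rule and were named after their values were seen. One gene that this rule would name is not reported here. Libraries of a group differed by more than sampling noise (chi-square per degree of freedom 2.75 to 7.18), so none was counted as a repeat. Same-numbered libraries of different groups did not deviate together (correlations of -0.047 to 0.053), and the numbers were not used as pairs. Intervals cover the spread between cultures as edgeR estimates it.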

Additional observations from a re-analysis of the deposited data

How the results depend on the processing

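Over 27 comparisons of the 9 genes, 226 of 242 fits under other settings and 144 of 162 fits without 1 library kept the direction and the side of the threshold. Tbl1xr1 and Ncoa3 kept theirs in each fit against Veh. Scaling by library totals alone reversed LPS against Veh to -0.21 for Coro2a, -0.15 for Gps2, -0.23 for Hdac3, -0.029 for Kdm1a, -0.27 for Ncoa1 and -0.10 for Ncor1, and T0+LPS against Veh to -0.094 for Gps2, -0.051 for Kdm1a and -0.15 for Ncor1. It then called 5 of the 9 genes lower and 0 higher in both comparisons. Of the other coregulators, it called 22 lower and 13 higher in LPS against Veh and 19 lower and 11 higher in T0+LPS against Veh. Over all genes, it called 5408 of 9559 lower and 1696 higher in LPS against Veh. In T0+LPS against Veh, these were 5520 of 9636 lower and 1661 higher. This scaling leaves out the composition factors, which differ between Veh and the other groups.

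In LPS against Veh, 1 gene in place of 2 was called higher without a filter on low counts, with DESeq2, with all 9 libraries in 1 fit and with the replicate number as a block, Gps2 being lost each time (adjusted p = 0.16, 0.11, 0.071 and 0.067); the cause was not tested. The replicate block changed no other call of the 9 genes. Without the filter, Ncoa1 was at -0.015 in LPS against Veh and 2 other coregulators were called higher in T0+LPS against LPS.

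Without 1 library, LPS against Veh ran from -0.011 to 0.19 for Coro2a and from -0.058 to 0.061 for Ncoa1. T0+LPS against LPS ran from -0.014 to 0.12 for Gps2, from -0.042 to 0.010 for Kdm1a and from -0.13 to 0.039 for Ncor1, and T0+LPS against Veh from -0.072 to 0.021 for Hdac3 and from -0.17 to 0.091 for Ncoa2. The number of genes called higher ran from 1 to 2 in both comparisons with Veh, and that of other coregulators in T0+LPS against LPS from 0 to 1 (1 without LPS replicate 3). Depth limited Ncoa2 (112 reads) and Coro2a (218 reads), whose intervals span changes in both directions.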
